A study of Mus musculus with 15 samples.

Results

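Arntl, Npas2, Tef, Hlf and Dbp code for transcription factors of the circadian clock, and their mRNA was described in mouse cortex collected 1 month after repeated head impacts at high frequency (HF-HI). Every listed transcript whose GENCODE M21 gene name is one of these 5 genes was taken, which gave 7 of the 10370 transcripts, in 5 of 7740 genes. Tef had 3 listed transcripts and each other gene had 1. The transcripts were taken by gene name, and the genes were chosen with earlier results of these data known. Total RNA was sequenced from the cortex of male C57BL/6 mice (C57BL/6J in the study's methods), labelled 12 weeks of age, with 7 Sham and 8 HF-HI libraries. HF-HI mice received repeated head impacts under isoflurane on consecutive days, whereas the Sham group was handled and anesthetized but never struck. The tissue was a homogenate of all cortical cells. The time of day at collection is not given in the sources used here, and these genes cycle over the day, so a difference in collection time cannot be told apart from a difference between groups.

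The clock is a loop of transcription that runs over the day in nearly all cells. Arntl (BMAL1) pairs with Clock, or with its relative Npas2, which is abundant in the forebrain, and the pair binds E-box elements to drive the Per, Cry and Nr1d genes. Per and Cry proteins block the pair, whereas the Nr1d (REV-ERB) proteins repress Arntl through ROR elements, where the ROR proteins act as activators. Dbp, Tef and Hlf are the PAR bZIP factors, a family of outputs that bind D-box elements. Dbp is a direct E-box target of the Arntl pair, and loss of all 3 PAR bZIP factors in mice lowers pyridoxal kinase (Pdxk) in the brain and causes seizures.

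The elements through which these genes are read were looked up in RefSeq promoter windows on GRCm38.p6, running from 250 bases before to 50 bases after a start. All 5 genes matched, with 7 windows, and both strands were searched. An E-box (CACGTG) was found in both Tef windows, 127 and 138 bases before the start, and in 7.15% of 32851 windows overall. A ROR element core (AGGTCA) lay 31 bases after 1 of the 2 Arntl starts, against 16.3% of windows. No D-box (TTATGTAA or TTACGTAA, in 1.06% of windows) was found in any member window, and Npas2, Hlf and Dbp held none of these letters in their windows. The motifs do not overlap each other. A match describes letters and not binding. The 3 matches are shown because they lie at the 2 RefSeq starts of Tef, whose coding transcripts are compared below, and because the Arntl match is the element of the Nr1d and ROR proteins. Capitals mark the motif, and every line reads 5′ to 3′ on the plus strand, which is the strand of both genes. The first Tef match lies in an exon of ENSMUST00000109553.
Tef, chr15:81802534-81802563: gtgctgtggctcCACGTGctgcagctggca
Tef, chr15:81811264-81811293: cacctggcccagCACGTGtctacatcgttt
Arntl, chr7:113207530-113207559: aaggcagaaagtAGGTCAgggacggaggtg

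The deposited values are variance-stabilized (VSD) on a log2 scale, and they were turned back into normalized counts and whole reads. Listed reads per library ran from 3496103 to 10582858, and HF-HI libraries were shallower, the difference in mean log2 size factor being −0.55 (exact permutation p = 0.0280, two-sided as all tests here). HF-HI replicate 2 stood apart, with a score of 12.6 on the leading principal component (14.3% of the variance) against −3.35 to 0.721 in the other libraries. Ttr, the main choroid plexus transcript, was at 6589 and 6685 normalized counts in Sham replicates 1 and 2 and at 8663 and 8165 in HF-HI replicates 2 and 5, against at most 176 in the other libraries. All 5 cortical excitatory neuron markers were listed, and their sum was 13857 to 15838 in Sham and 14717 to 16577 in HF-HI (exact permutation p = 0.0179). Its part in the results was not tested. Striatal markers, 5 of 6 listed, summed to 3257 to 5405 in Sham and 2494 to 5504 in HF-HI (exact permutation p = 0.232). Fewer cells of a type and less RNA per cell cannot be told apart in such bulk samples.

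Between groups, 1 of the 7 member transcripts differed at an unadjusted p under 0.05, and that transcript, Npas2, was lower in HF-HI. Over all 10370 transcripts, 8.83% were called at that level by limma, 4.94% higher and 3.9% lower in HF-HI, so a single call among 7 members is close to that background. None of the members passed the study's adjusted threshold of 0.1, and 0 of all transcripts did, which is 0% (limma; 916 at unadjusted p, and 876 unadjusted and 0 adjusted by voom on the recovered reads). The study's own test on counts, a Wald test, was not run here, and the study reports significantly changed genes at this time. Over the members, 3 of 7 differences were positive and the median log2 ratio was −0.06, beside −0.00191 and 5134 positive over all transcripts. The groups overlapped for each of the 7, as they did for all but 16 of the 10370 transcripts. All values below are normalized counts unless another scale is named, and "called" means an unadjusted limma p under 0.05.

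**Figure D1:**
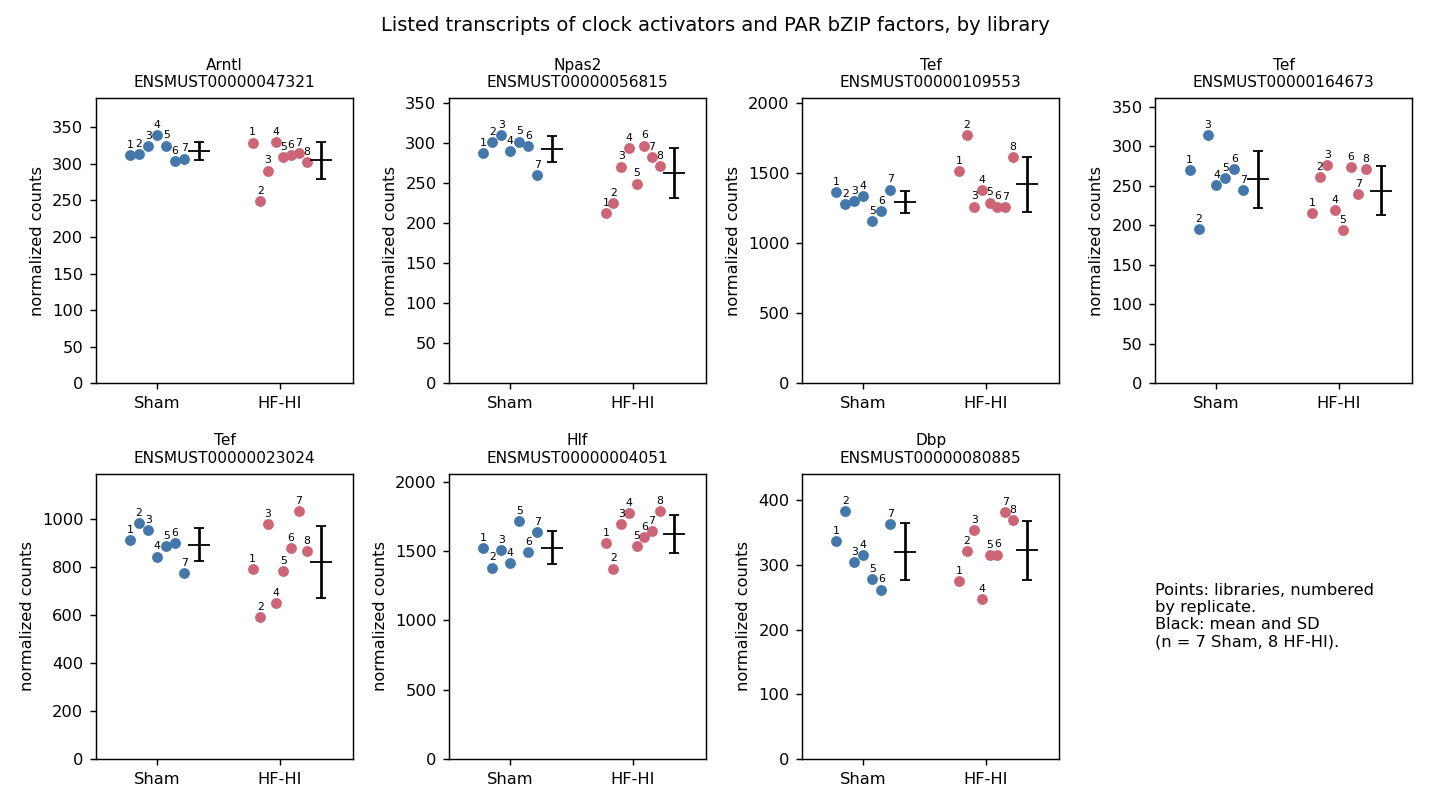
Normalized counts of the 7 member transcripts in each Sham and HF-HI library, 1 point per library, with the mean and SD of each group. The groups overlap in every panel, and HF-HI replicate 2 is the lowest library for Arntl and the highest for Tef ENSMUST00000109553.

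Arntl, the partner of Clock or Npas2, was read from ENSMUST00000047321, a transcript of 20 exons at chr7:113207465-113314126 on mm10. Sham libraries ran from 304 to 339 normalized counts with a median of 314, and HF-HI libraries from 249 to 330 with a median of 311. The groups overlapped, and 3 of 8 HF-HI libraries were below all Sham libraries. The means were 318 ± 12.3 (SD, n = 7) and 305 ± 25.8 (SD, n = 8), and the VSD difference of −0.02 was not called (exact permutation p = 0.258, limma adjusted p = 0.779). The 95% interval of the fold was 0.880 to 1.04. In Sham the spread between libraries, a CV of 3.87%, was below the 5.10% that counting reads alone gives. In HF-HI the spread was 8.48% against 6.43% from counting.

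Npas2, which can take the place of Clock beside Arntl, was read from ENSMUST00000056815, with 21 exons at chr1:39194212-39363236. Sham libraries ran from 260 to 309 with a median of 295, and HF-HI libraries from 212 to 296 with a median of 271. In HF-HI, 7 of 8 libraries were below the Sham median and replicates 1, 2 and 5, at 212, 225 and 249, were below all Sham libraries. The means were 292 ± 16.1 (SD, n = 7) and 262 ± 31.1 (SD, n = 8), a VSD difference of −0.04 (exact permutation p = 0.0435, limma unadjusted p = 0.0480 and adjusted p = 0.561) and a fold of 0.803 to 0.998 at 95%. The call was lost in 11 of 15 fits that left out a library (limma unadjusted p from 0.0251 to 0.0956), remaining only without Sham replicate 7 or HF-HI replicates 4, 6 or 7. With reads summed per gene and tested by voom, the log2 difference was −0.17 (unadjusted p = 0.0244, adjusted p = 0.443), and it was lost only without HF-HI replicate 1 (−0.12, unadjusted p = 0.0654). HF-HI replicate 1 also had the lowest striatal marker sum, 2494, and with that sum as a covariate the VSD difference was −0.03 (limma unadjusted p = 0.130). With depth as a covariate the unadjusted limma p was 0.0329, and with Ttr it was 0.0377.

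Tef, a PAR bZIP factor, was read from 3 transcripts on chromosome 15, and the starts of the 2 coding ones lie 8993 bases apart. ENSMUST00000109553 codes for protein from the upstream start, at chr15:81802421-81826863, and its Sham libraries ran from 1160 to 1383 with a median of 1299, and HF-HI libraries from 1261 to 1773 with a median of 1335. HF-HI replicates 1, 2 and 8, at 1518, 1773 and 1617, were above all Sham libraries, and the other 5 lay among them. The means were 1294 ± 78.6 (SD, n = 7) and 1420 ± 195 (SD, n = 8), and the VSD difference of 0.07 was not called (exact permutation p = 0.136, limma adjusted p = 0.653, fold 0.977 to 1.22 at 95%). ENSMUST00000023024 begins at the downstream start, chr15:81811414-81826698, downstream of the second E-box printed above. Its values were 774 to 985 with a median of 902 in Sham, and 591 to 1035 with a median of 829 in HF-HI. Here 6 of 8 HF-HI libraries were below the Sham median, the lowest being replicate 2 at 591 and replicate 4 at 651, and 1 library was above all Sham libraries. The means of 894 ± 69.9 and 822 ± 151 (SD, n = 7 and 8) gave a VSD difference of −0.06, not called (exact permutation p = 0.257, limma adjusted p = 0.743). ENSMUST00000164673, annotated as a retained intron, had 258 ± 35.6 in Sham and 244 ± 31.4 in HF-HI (SD, n = 7 and 8; exact permutation p = 0.434, limma adjusted p = 0.853).

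The 2 coding Tef transcripts share 3772 bases and have 481 and 307 bases that no other listed Tef transcript holds, so that reads in the shared part were divided between them by the authors' estimation, and the split is uncertain. As a share of Tef, ENSMUST00000109553 took 50.3 to 57.6% in Sham with a median of 52.0%, and 49.7 to 67.5% in HF-HI with a median of 57.8%. The mean share was 4.19 points higher in HF-HI, 57.1 ± 6.14 against 52.9 ± 2.67 (SD, n = 8 and 7), with exact permutation p = 0.118 (adjusted over the 3 shares, 0.237). The share of ENSMUST00000023024 was 32.2 to 40.1% in Sham and 22.5 to 40.8% in HF-HI, a mean difference of −3.44 points (exact permutation p = 0.177, adjusted 0.237). HF-HI replicate 2 held both extremes, at 67.5% and 22.5%, with a Tef total of 2625. The Tef total itself was 2446 ± 90.0 in Sham and 2487 ± 171 in HF-HI (SD, n = 7 and 8), and its voom log2 difference was 0.03 (unadjusted p = 0.503). Neither the shares nor the total differed by more than the spread between libraries. Without HF-HI replicate 7 the first share differed by 5.24 points (exact permutation p = 0.0484), and without Sham replicate 2 the retained intron share differed by −1.18 points (exact permutation p = 0.0366).

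**Figure D2:**
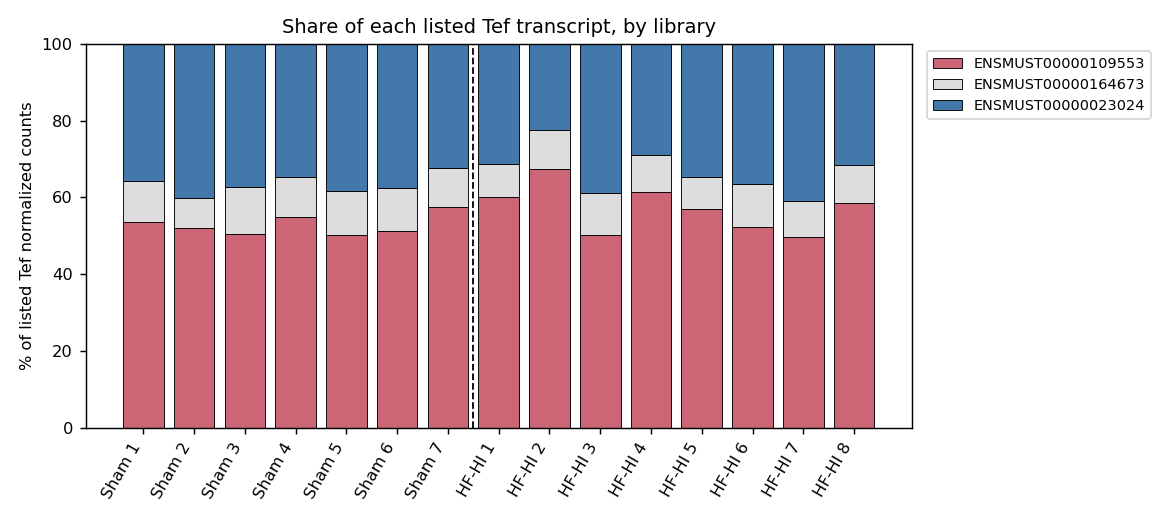
Share of Tef normalized counts, in percent, held by each of the 3 listed Tef transcripts in each Sham and HF-HI library. The share of ENSMUST00000109553 has a mean of 52.9% in Sham and 57.1% in HF-HI, with HF-HI replicate 2 at 67.5%.

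Hlf, a PAR bZIP factor, was read from ENSMUST00000004051, with 4 exons at chr11:90336536-90390895 on the minus strand. Sham libraries ran from 1381 to 1718 with a median of 1505, and HF-HI libraries from 1374 to 1791 with a median of 1622. The groups overlapped over nearly their whole range, while 7 of 8 HF-HI libraries were above the Sham median. The means were 1524 ± 119 (SD, n = 7) and 1621 ± 137 (SD, n = 8), and the VSD difference of 0.05 was not called (exact permutation p = 0.167, limma adjusted p = 0.694, fold 0.974 to 1.16 at 95%). HF-HI replicate 2 was the lowest Hlf library, and without it the difference was 0.07 (limma unadjusted p = 0.0343, adjusted p = 0.543). With reads summed per gene the voom log2 difference was 0.09 (unadjusted p = 0.131). It was 0.12 (unadjusted p = 0.0342) without HF-HI replicate 2, and 0.12 (unadjusted p = 0.0400) without Sham replicate 5.

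Dbp, the PAR bZIP factor that the Arntl pair drives directly, was read from ENSMUST00000080885, with 4 exons at chr7:45705088-45710203. Sham libraries ran from 262 to 384 with a median of 315, and HF-HI libraries from 248 to 382 with a median of 319. The groups covered nearly the same range, and 6 of 8 HF-HI libraries were above the Sham median. The means were 320 ± 44.0 (SD, n = 7) and 323 ± 45.6 (SD, n = 8), a VSD difference of 0.003 (exact permutation p = 0.931, limma adjusted p = 0.987). The 95% interval of the fold was 0.865 to 1.17, so the values are compatible with a fold anywhere in that range. The spread was 13.7% in Sham and 14.1% in HF-HI, against 5.11% and 6.35% from counting alone. Dbp and Arntl lay at similar normalized counts, and the Dbp spread between Sham libraries was the wider, at 13.7% against 3.87%.

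Levels of the 5 genes were compared per kilobase of transcript, as normalized counts per kb over all 15 libraries. The order was Tef ENSMUST00000109553 at 309 ± 36.6, Hlf at 279 ± 23.7, Tef ENSMUST00000023024 at 210 ± 29.9, Dbp at 175 ± 23.6, Tef ENSMUST00000164673 at 113 ± 14.9, Arntl at 107 ± 7.26 and Npas2 at 65.2 ± 6.78 (SD, n = 15). The upper PAR bZIP transcripts were thus above both activators, and Arntl was above Npas2 in 15 of 15 libraries without overlap. The first Tef transcript was above Hlf in 11 of 15 libraries, and the retained intron was above Arntl in 9 of 15. Whether those neighbors differed within libraries was not tested. Hlf was above the second Tef transcript in 15 libraries, that transcript above Dbp in 13 and Dbp above the retained intron in 15, with ranges that overlapped.

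**Figure D3:**
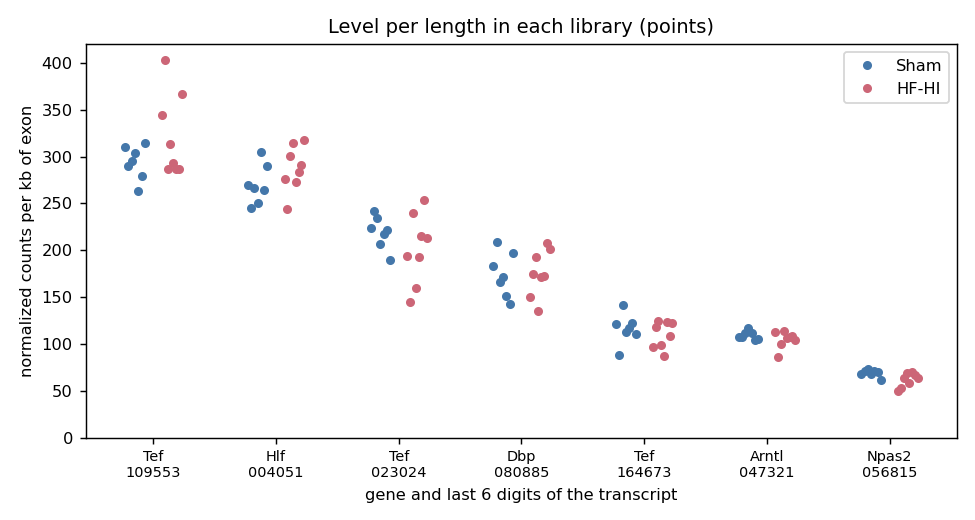
Normalized counts per kilobase of each member transcript in all 15 libraries, ordered by the mean. Npas2, at 65.2, lies below every other transcript in every library, and the upper transcripts overlap.

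Across libraries, with group means removed, 10 pairs of member genes were correlated (n = 15, the leading transcript of each gene, points sharing a library and its depth). Npas2 and Tef ran against each other, with Pearson r = −0.61 (permutation p = 0.0151) and Spearman rho = −0.59 (permutation p = 0.0237). Adjusted over the 10 pairs these were 0.151 and 0.237, and no pair passed 0.05 after adjustment. Within Sham r was −0.63 and within HF-HI −0.61, whereas without HF-HI replicates 1 and 2, farthest from the median, it was −0.39 (permutation p = 0.188). The 2 activators, Arntl and Npas2, had r = 0.34 (permutation p = 0.214), and 0.04 without HF-HI replicates 2 and 3. Arntl and Tef had r = −0.48 (permutation p = 0.0690), and −0.11 without those 2. Arntl and Dbp had r = −0.29 (permutation p = 0.302) and rho = −0.38 (permutation p = 0.169). Over all 15 libraries the PAR bZIP factors were not correlated among themselves beyond an absolute r of 0.34, which was −0.34 for Tef and Hlf (permutation p = 0.222). Single groups gave larger values. For Tef and Dbp r was 0.64 within Sham (permutation p = 0.123) and −0.09 within HF-HI. For Tef and Hlf it was −0.31 within Sham and −0.37 within HF-HI (permutation p = 0.379).

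The transcripts most like each member were then named by r over the same 15 libraries, as the highest of all listed transcripts and therefore with no p. For Npas2 they were Cacna1i (0.90), a calcium channel gene, Tab3 (0.86) and Rrp12 (0.86), which stood at 0.90, 0.83 and 0.82 without HF-HI replicate 2. For Arntl they were Egr3 (0.90), an activity-regulated transcription factor, Ift80 (0.88) and Hmga1 (0.88), which stood at 0.70, 0.69 and 0.73 without it. For Tef they were Slc3a2 (0.86), Thumpd1 (0.84) and Tvp23b (0.83). For Hlf they were Gm26782 (0.90), Kdm7a (0.89) and Pou3f2 (0.89), a neuronal transcription factor. For Dbp they were Armc8 (0.82), Slc27a4 (0.79) and Ltbp3 (0.79). None of these neighbors is a member or a listed clock gene.

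The other genes of the clock were taken from lists by role. These lists were chosen with earlier results of these data known, so their counts beside the background are a description and not a test. Among loop partners, 1 of 4 listed transcripts was called, higher, beside 4.94% of all transcripts. It was ENSMUST00000040153, the less abundant transcript of Rorb, a ROR receptor, at 126 ± 83.4 in Sham and 224 ± 97.6 in HF-HI (SD, n = 7 and 8; exact permutation p = 0.0639, limma unadjusted p = 0.0437 and adjusted p = 0.555), and it was lost in 9 of 15 fits leaving out a library. The main Rorb transcript, ENSMUST00000112832, had 972 ± 152 and 974 ± 124 (SD, n = 7 and 8; exact permutation p = 0.949). Clock itself, the other partner of Arntl, had 1289 ± 52.8 and 1291 ± 44.1 (exact permutation p = 0.931). Among repressors, 6 of 11 transcripts were called, all higher, beside 4.94% of all transcripts, with a median log2 ratio of 0.16 and 9 of 11 genes listed. They were both Per1 transcripts, Per2, Cry2, Nr1d1 and Bhlhe40, and none of the 6 was lost when a library was left out. Bhlhe40, an E-box repressor, had 668 ± 97.0 in Sham and 885 ± 102 in HF-HI (exact permutation p = 4.7e-04, limma adjusted p = 0.227). Nr1d1, a repressor of Arntl, had 439 ± 32.1 and 526 ± 63.2 (exact permutation p = 0.0033, limma adjusted p = 0.351). Its relative Nr1d2, more abundant, had 1302 ± 65.6 and 1289 ± 106 and was not called (exact permutation p = 0.760, limma adjusted p = 0.952). Per2 had 187 ± 34.2 and 259 ± 50.3 (exact permutation p = 0.0040, limma adjusted p = 0.351). Among genes of clock protein turnover, 1 of 9 transcripts was called, Usp2, higher, beside 4.94% of all transcripts. Usp2 had 200 ± 21.9 and 236 ± 26.5 (exact permutation p = 0.0134, limma adjusted p = 0.448), and its call was lost in 0 of the 15 fits. Among targets of the clock and PAR bZIP factors, 1 of 6 was called, Por, lower, beside 3.9% of all transcripts. Por had 275 ± 60.5 and 220 ± 21.2 (exact permutation p = 0.0440, limma adjusted p = 0.525), and its call was lost in 7 of the 15 fits. Pdxk, the PAR bZIP target named above, had 808 ± 35.1 and 774 ± 49.7 (exact permutation p = 0.160). With depth as a covariate the unadjusted limma p was 0.0911 for Cry2, 0.0706 for Usp2, 0.182 for Rorb and 0.203 for Por.

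**Figure D4:**
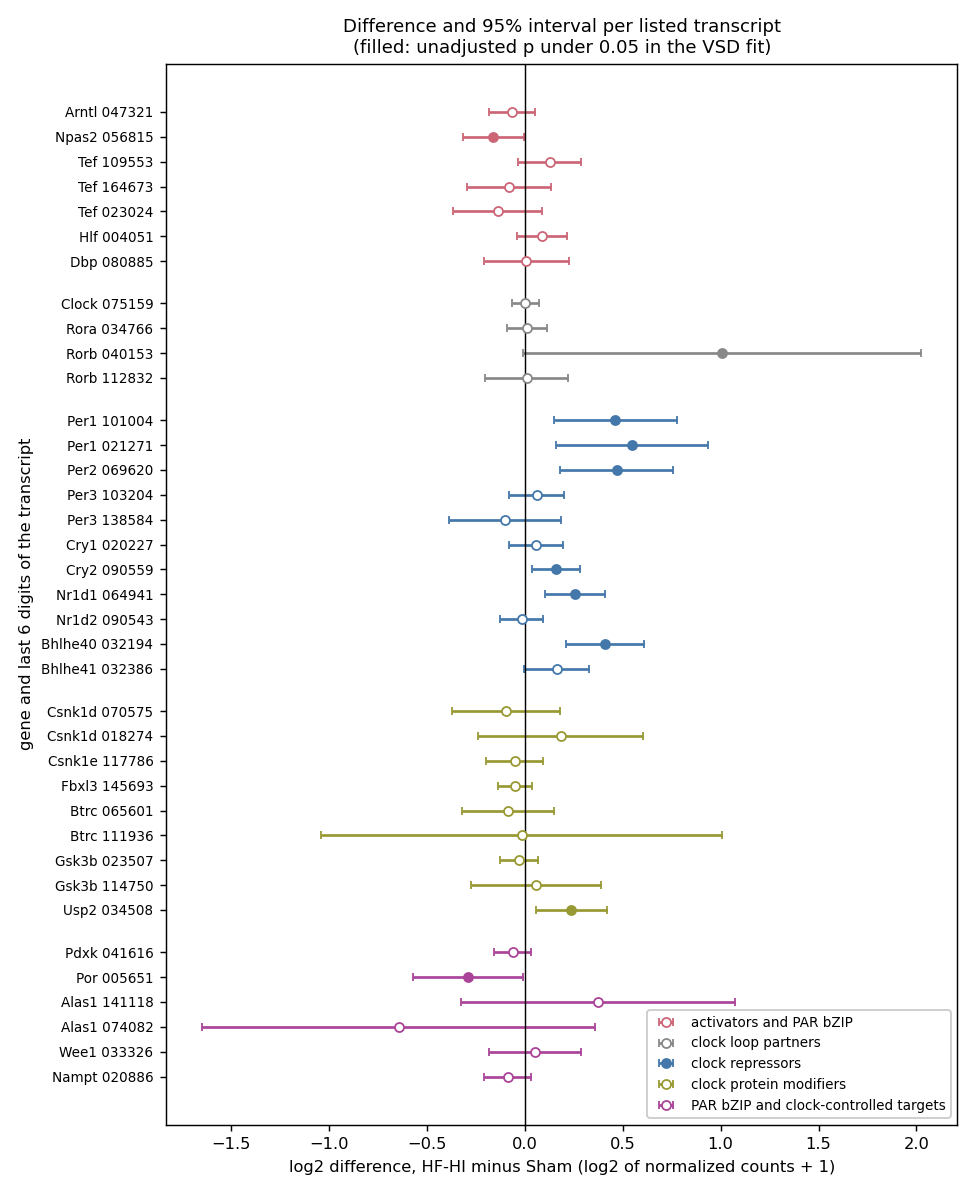
Log2 difference, HF-HI minus Sham (log2 of normalized counts + 1), with its 95% interval, for the member transcripts and the transcripts of the clock lists, filled where the VSD fit had an unadjusted p under 0.05. Intervals of 6 repressor transcripts lie above 0, and among the members only that of Npas2 excludes 0.

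The members were set against the repressors within each library, as a log2 ratio of leading transcripts, which cancels the scaling of libraries. This measure was chosen after the repressors were seen to be higher, so the ratios are given as a description with no test, and the 45 ratios of 5 members to 9 repressors share their members and repressors. In 38 of 45 the mean ratio was lower in HF-HI. For Dbp against Per1 the ratio differed by −0.54, while Dbp itself differed by 0.008 and the leading Per1 transcript by 0.55 on the log2 scale, and nearly the whole ratio difference is that of Per1. For Dbp against Bhlhe40 it was likewise, with a ratio difference of −0.40 and 0.41 for Bhlhe40 alone. For Arntl against Nr1d1 the ratio differed by −0.32, of which Arntl made up −0.07 and Nr1d1 0.26. The ratio of Npas2 to Per2 differed by −0.63, with −0.16 for Npas2 and 0.47 for Per2. Each of these 4 ratios was under the median of Sham in 8 of 8 HF-HI libraries, and each is to a repressor called higher. Ratios to Nr1d2, not called, differed by −0.05 for Arntl, −0.14 for Npas2, 0.14 for Tef, 0.11 for Hlf and 0.03 for Dbp. For Arntl to Nr1d2, 4 of 8 HF-HI libraries were under the Sham median. The ratio was lower in HF-HI for 6 of 9 repressors with Tef and for 6 of 9 with Hlf.

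**Figure D5:**
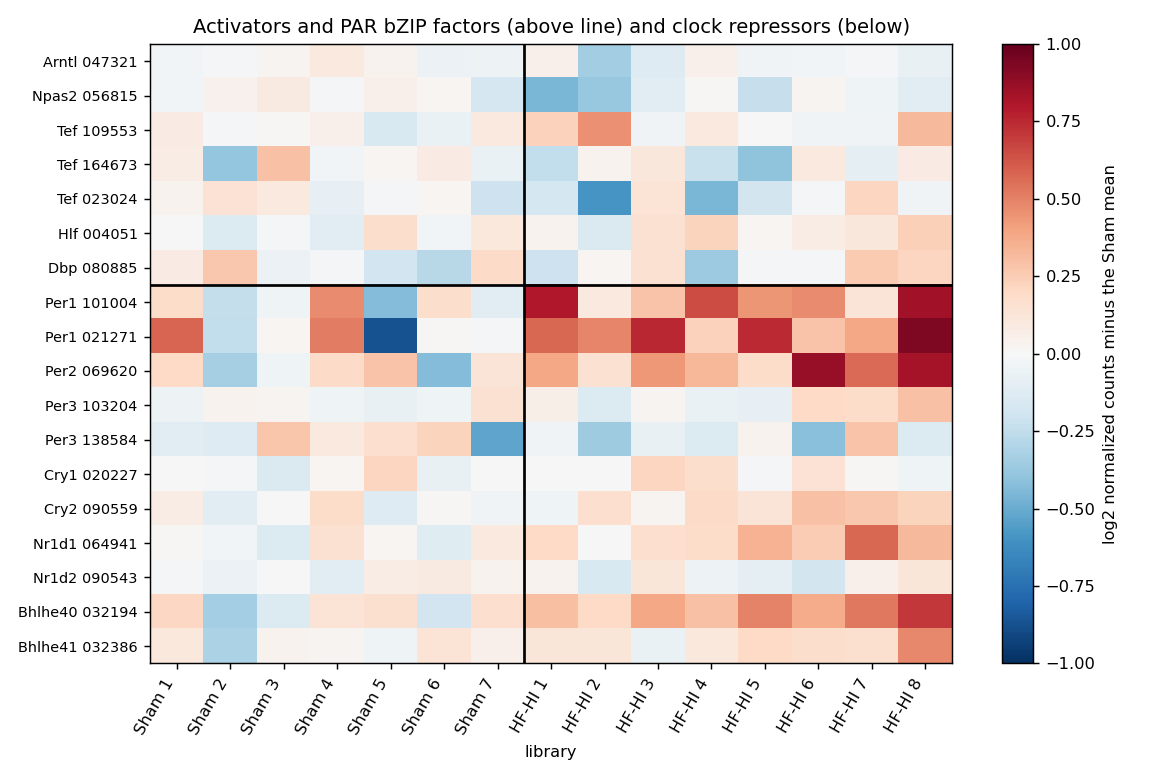
Heatmap with a column per library and a row per transcript, members above the line and clock repressors below, colored by log2 normalized counts minus the mean of the Sham libraries. The rows of Per1, Per2, Nr1d1 and Bhlhe40 are mostly red in the 8 HF-HI columns, while the Arntl row is pale apart from HF-HI replicate 2 and the Dbp row holds both colors in both groups.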

How the data were processed

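Cortical total RNA was sequenced in 7 Sham and 8 HF-HI libraries. Per the study's methods, stranded libraries were made after ribosomal RNA depletion, reads were aligned to mm10 with STAR, and counts per transcript were estimated with eXpress. The authors deposited log2-scale variance-stabilized values from DESeq2 for 10370 transcripts. The versions of STAR and eXpress and the annotation release are not given in the sources used here. The listed transcripts start at a mean of 107.9 normalized counts, so rarer ones were not analysed here. VSD differences understate log2 folds, since at 300 normalized counts a doubling adds only 0.33.

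The transformation was inverted, and 100.0% of values gave whole reads within 0.1 reads. Names and coordinates came from GENCODE M21 (10241 matched). The members and lists were chosen with earlier results of these data known. Differences were fitted over all transcripts with limma 3.58.1 (R 4.3.3, group only, eBayes with trend, two-sided) and adjusted by Benjamini-Hochberg at 0.1. Fold intervals used log2 of normalized counts with a pseudocount of 1. Member differences and shares used exact permutations of the 6435 assignments, with 0.000155 as the smallest p, and correlations 100000 resamples. Named genes were all members, called genes of each list with those its role needs, and the 3 transcripts most correlated with each member. The limma fit was tested on simulated counts. The labels do not name the animal behind each library, so p-values measure the spread between these samples.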

Additional observations from a re-analysis of the deposited data

How the results depend on the processing

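The 7 transcript differences were refitted under 29 alternatives each, and those of Arntl and the 3 Tef transcripts kept their direction and their side of the threshold in all 29, as did the summed reads of Arntl and Tef in 17. Npas2 kept its direction in all 29 and was not called in 15. Its VSD difference was −0.0420 without the trend and −0.0420 with a minimum mean of 200 normalized counts, −0.0315 with striatal markers as a covariate, and −0.0494 to −0.0314 with single libraries left out. Over the alternatives its adjusted p ran from 0.504 to 0.932. The number of member transcripts called was 0 in the first 3 of these settings and 0 to 1 with single libraries left out. The Hlf difference was 0.0366 to 0.0673 with single libraries left out, and that of Dbp, near 0, −0.0103 to 0.0170. With reads summed per gene and single libraries left out, the log2 difference was −0.19 to −0.12 for Npas2, 0.066 to 0.12 for Hlf and −0.013 to 0.076 for Dbp. With log2 size factor as a covariate, 533 of all listed transcripts were called, and 748 to 987 with single libraries left out, against 916. Leaving out single libraries gave 2.70 to 5.24 points for the share of Tef ENSMUST00000109553, −1.18 to −0.467 for ENSMUST00000164673 and −4.54 to −1.93 for ENSMUST00000023024. The cause of these changes was not tested.

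Same-numbered Sham and HF-HI libraries correlated at −0.138 to 0.0905 after group means were removed. Only those of replicate 4 correlated best with their own number, so no sign of pairing by number was seen. Such correlations cannot exclude a pairing, and the labels do not say whether the numbers pair the samples. The fit with the replicate block left out HF-HI replicate 8, which has no same-numbered Sham library. In that fit 890 transcripts were called and the number of members called was 0. Npas2 was −0.0439 (limma unadjusted p = 0.0826), Dbp was −0.0059 and the summed reads of Dbp were −0.0022. Leaving out HF-HI replicate 8 with no block gave the same VSD differences, −0.0439 for Npas2 (limma unadjusted p = 0.0526) and −0.0059 for Dbp.

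The correlations of several pairs changed sign. Without HF-HI replicate 2 (chosen after seeing the data), r was −0.038 for Arntl and Npas2, 0.11 for Arntl and Tef, −0.17 for Arntl and Hlf and 0.075 for Tef and Hlf. Without the 2 libraries farthest from the median, r was −0.044 for Arntl and Hlf, −0.29 for Npas2 and Dbp, −0.046 for Tef and Dbp and 0.023 for Hlf and Dbp. Within Sham r was −0.15 for Arntl and Hlf, −0.29 for Npas2 and Hlf and −0.42 for Npas2 and Dbp. Within HF-HI r was −0.091 for Tef and Dbp and 0.068 for Hlf and Dbp, and with group means kept it was −0.0095 for Npas2 and Dbp.

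Covariates for striatal markers and Ttr and the ratios to repressors were chosen after seeing the data. So were the log2 size factor covariate and the replicate block for the summed reads. Counting error was largest for Tef ENSMUST00000164673, with 110 reads in the lowest library, and next for Dbp, Npas2 and Arntl, with 124, 146 and 162, and intervals cover counting error and the spread between libraries together.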
